A study of Homo sapiens with 6 samples.

Results

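The genes described here are 10 BMP and TGF-β response genes, taken by symbol from the 17448 genes listed in the expression table. They are the ID factors ID1, ID2, ID3 and ID4, the inhibitory SMADs SMAD6 and SMAD7, the ligands BMP4, TGFB1 and TGFB2, and the TGF-β-induced matrix protein gene TGFBI. Their RNA was measured in HCC2814 cells, a human LUSC line grown in 10% serum. The WT group (3 samples) received non-targeting guide RNA, sgCtrl, and the MLST8-KO group (3 samples) guide RNA against MLST8. The study's western blots of this line carry several numbered sgControl and sgMLST8 labels. Whether the RNA samples of a group carried the same guide or different ones is not given in the sources used here. The labels put exposure to the guides at 48 to 72 h, and antibiotic selection followed. The study's methods instead give 48 to 72 h as the time of virus collection, with a shorter infection before selection. The MLST8 protein belongs to both mTOR complexes, and the question was which transcripts change when mTORC2 is disabled. The study delivered Cas9 and guide with a lentiviral vector and describes no isolation of single clones for this line, and the replicates came from independent experiments.

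BMPs and TGF-βs are secreted ligands that bind pairs of type I and type II receptor kinases. BMP receptors phosphorylate SMAD1, SMAD5 and SMAD9, and TGF-β and activin receptors phosphorylate SMAD2 and SMAD3. Both kinds of SMAD enter the nucleus with SMAD4. The ID genes and SMAD6 are well-known direct BMP targets, SMAD7 answers to both arms, and TGFBI is named for its induction by TGF-β. In squamous epithelium, ID proteins bind E proteins and keep them off DNA, which restrains differentiation, and TGF-β is a strong inhibitor of keratinocyte growth.

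Libraries held 14381673 to 15744154 estimated counts, and a gene at 0 could still reach 3 counts, or 0.191 to 0.209 CPM (counts scaled to library size); that limit covers counting error only. MLST8 itself had 874, 827 and 842 counts in WT against 396, 629 and 401 in MLST8-KO samples (log2 fold change -0.96 with a standard error, SE, of 0.15 and an adjusted p = 0.00339, edgeR). RNA level does not measure loss of the protein. Squamous markers (KRT5, KRT14, TP63 and others) were all at 10 or more counts in each sample. Their summed level was 10096 to 15322 TPM (transcript abundance scaled by length and depth) in WT and 19063 to 21130 in MLST8-KO cells. Of the 9, 7 were higher DEGs (77.8%, against 16.3% of all genes tested). Fibroblast markers summed to 0.65 to 0.69 TPM in WT and 1.23 to 3.17 in MLST8-KO cells, with 0 of 8 reaching 10 counts in each sample. Hepatocyte markers summed to 285 TPM in MLST8-KO replicate 1 and to 0.88 to 6.63 in the other 5 libraries, and that library stands apart.

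The stretches before 3 of the 7 genes that rose, and before TGFB1, which did not, are shown for comparison of their start regions. Each is the 250 bases just upstream of the RefSeq start site (GRCh38.p14), 5′ to 3′ on the gene's strand, and capitals mark TATAAA in ID1 and ID4 and GTCTAGAC, the palindromic SMAD-binding element, in SMAD6.
ID1 (chr20:31605039-31605288, plus strand): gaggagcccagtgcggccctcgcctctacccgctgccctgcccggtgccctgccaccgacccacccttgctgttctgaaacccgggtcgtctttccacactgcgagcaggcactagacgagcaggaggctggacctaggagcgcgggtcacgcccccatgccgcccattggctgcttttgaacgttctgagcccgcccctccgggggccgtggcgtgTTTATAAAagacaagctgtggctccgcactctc
ID4 (chr6:19837120-19837369, plus strand): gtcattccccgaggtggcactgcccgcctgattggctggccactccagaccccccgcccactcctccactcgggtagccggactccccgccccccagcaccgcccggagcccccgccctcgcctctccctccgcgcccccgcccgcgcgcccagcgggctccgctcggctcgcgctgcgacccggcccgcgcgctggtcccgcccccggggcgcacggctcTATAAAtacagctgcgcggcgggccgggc
SMAD6 (chr15:66701986-66702235, plus strand): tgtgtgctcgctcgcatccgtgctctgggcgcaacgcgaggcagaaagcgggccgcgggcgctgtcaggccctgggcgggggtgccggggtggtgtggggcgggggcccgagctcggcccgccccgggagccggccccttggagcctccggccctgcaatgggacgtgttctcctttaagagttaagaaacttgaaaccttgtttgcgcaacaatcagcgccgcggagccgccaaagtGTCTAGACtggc
TGFB1 (chr19:41353923-41354172, minus strand): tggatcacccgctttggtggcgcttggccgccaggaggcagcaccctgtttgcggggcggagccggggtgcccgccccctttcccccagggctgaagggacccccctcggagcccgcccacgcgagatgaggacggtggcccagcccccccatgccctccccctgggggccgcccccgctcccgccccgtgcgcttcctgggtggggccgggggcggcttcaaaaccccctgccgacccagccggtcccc
Motifs were searched on both strands, and all 10 genes had a sequence. GTCTAGAC occurred in SMAD6 alone among the 10, 12 bases before the start, and in 0.133% of 10561 tested genes with a sequence. TATAAA was found in ID1, ID4 and TGFB2, 29 to 33 bases before the start, against 5.47% of tested genes. In ID1 it was read on both strands at overlapping positions. The windows of ID2, ID3, SMAD7 and TGFBI, which also rose, held neither GTCTAGAC nor TATAAA. The GC-rich element GGCGCC, bound by BMP-activated SMADs, lay in BMP4 and TGFBI (26.3% of tested genes). The longer BMP-responsive element, GGCGNC and GTCT with 5 bases between them, was in 0 of the 10 windows (0.426% of tested genes). CAGACA was in TGFB2 alone (9.91%). The windows of ID3 and SMAD7 lay wholly within GENCODE exons of the same gene (250 bases), and ID2 had 202 such bases and TGFBI 93. The other windows had 0 to 8. Sequence further upstream was not searched, so the absence of a motif does not extend to it. The letters describe these windows only. The GC content was 66.0% in ID1, 78.8% in ID4, 68.0% in SMAD6 and 76.8% in TGFB1, with a median of 65.2% over tested genes.

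All 4 ID factors and both inhibitory SMADs rose in MLST8-KO cells, as did TGFBI, whereas TGFB1 did not pass the test and BMP4 and TGFB2 were barely detected. The rises ran from 1.28-fold for SMAD7 to 2.70-fold for ID4. Of the 10 genes, 8 passed the filter on low counts, each with at least 30 counts in every sample, and 7 of these were higher DEGs and 0 lower (edgeR's quasi-likelihood test, Benjamini-Hochberg adjusted p under 0.05 over 12951 genes). Among all genes tested, 16.3% were higher DEGs, 15.7% lower, and 32.0% either. The median log2 fold change was 0.86 over the 8 genes and 0.0045 over all genes tested. In the same 7 genes every MLST8-KO sample lay above every WT sample in CPM, which held for 24.8% of all genes. Bulk RNA cannot tell more RNA per cell from more cells that express a gene.

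**Figure D1:**
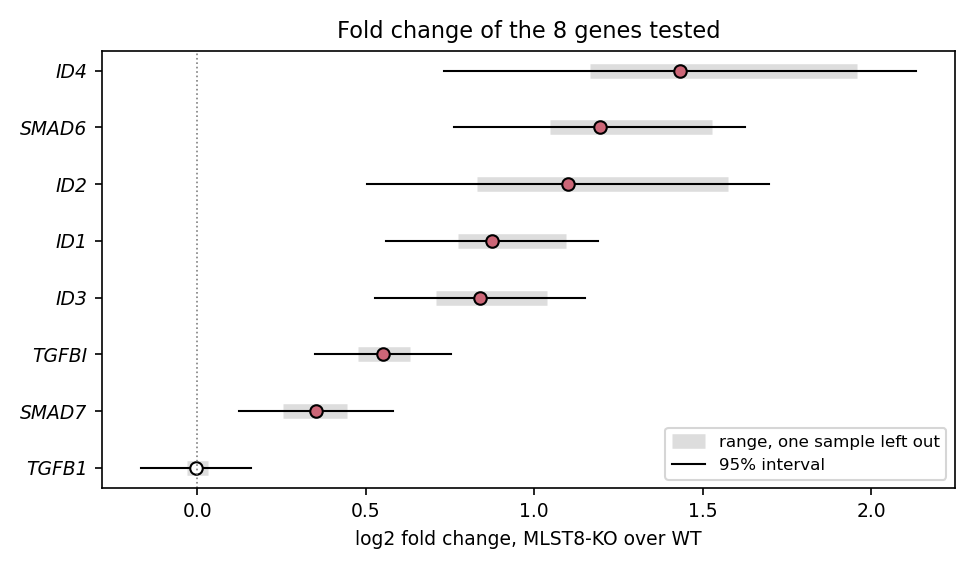
Log2 fold change of MLST8-KO over WT for the 8 genes tested, from edgeR. Points are estimates (filled where the adjusted p is under 0.05), lines 95% intervals and grey bars the range when each of the 6 samples is left out; 7 genes lie to the right of 0, from 0.35 (SMAD7) to 1.43 (ID4), and TGFB1 lies at 0.

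ID1, an inhibitor of basic helix-loop-helix (bHLH) factors and the most abundant of the 10 genes, lies on the plus strand of chromosome 20 (GRCh38, 31605283 to 31606515). Its counts were 2994, 1941 and 1841 in WT against 4646, 4379 and 4419 in MLST8-KO samples. Sample values here and below follow the order of replicates 1, 2 and 3. The groups did not overlap, and WT replicate 1 stood well above the other WT samples. ID1 was at 155 ± 37.7 CPM in WT against 284 ± 14.7 in MLST8-KO (SD, n = 3 each) and its log2 fold change came to 0.87 with an SE of 0.14 (adjusted p = 0.00369, edgeR).

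ID3 (chromosome 1, 23557918 to 23559794), a close relative that is often co-induced with ID1 by BMPs, was counted 1918, 1201 and 1298 times in WT against 3051, 2802 and 2710 in MLST8-KO samples. The pattern was that of ID1, with WT replicate 1 nearest to the MLST8-KO samples. Its level was 101 ± 23.2 CPM in WT against 181 ± 13.6 in MLST8-KO (SD, n = 3 each) and its log2 fold change came to 0.84 with an SE of 0.14 (adjusted p = 0.00396, edgeR). The 95% intervals of ID1 (0.56 to 1.19) and ID3 (0.53 to 1.15) nearly coincide.

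ID2 (chromosome 2, 8678845 to 8684453) had 557, 296 and 192 counts in WT against 907, 743 and 763 in MLST8-KO samples. WT samples spread widely, and the highest of them was below the lowest MLST8-KO sample. The level rose from 23.7 ± 11.9 to 51.1 ± 6.60 CPM (SD, n = 3 each) and its log2 fold change came to 1.10 with an SE of 0.27 (adjusted p = 0.0135, edgeR). The call was lost without WT replicate 2 (0.998, adjusted p = 0.0617, edgeR) and without MLST8-KO replicate 1 (0.99, adjusted p = 0.0573, edgeR). ID2 shares 38 exon bases with the antisense gene ID2-AS1, which is not among the genes listed.

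ID4 (chromosome 6, 19837386 to 19840684) is the scarcest of the ID factors in these cells. It had 89, 43 and 30 counts in WT against 198, 128 and 146 in MLST8-KO samples. Again the groups were apart, and replicate 1 was highest in each. From 3.68 ± 1.97 CPM in WT against 10.01 ± 2.50 in MLST8-KO (SD, n = 3 each), its log2 fold change came to 1.43 with an SE of 0.32 (adjusted p = 0.00935, edgeR), the largest estimate of the 8, with a 95% interval of 0.73 to 2.13 that takes in the estimates of ID1, ID2, ID3 and SMAD6.

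The genes whose log2 CPM followed ID4 most closely over the 6 samples, among 11187 others with a mean of at least 50 counts, were IVD (Pearson r = 0.999), PFKM (0.998) and C9orf3 (0.998). The correlations of ID4 with the other members were 0.991 for ID2, 0.978 for ID1, 0.972 for SMAD6, 0.971 for SMAD7, 0.958 for ID3, 0.873 for TGFBI and -0.40 for TGFB1. All 6 points share the group difference and their libraries, and 529 genes had r above 0.95, so these values are a description.

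SMAD6 (chromosome 15, 66702228 to 66782848), an inhibitory SMAD that mainly restrains BMP receptor signalling, had 299, 165 and 153 counts in WT against 531, 523 and 474 in MLST8-KO samples. The MLST8-KO samples lay close together, and all were above WT replicate 1, the highest control. It rose from 14.1 ± 4.99 to 32.3 ± 1.95 CPM (SD, n = 3 each) and its log2 fold change came to 1.19 with an SE of 0.19 (adjusted p = 0.00369, edgeR). SMAD7 (chromosome 18, 48919853 to 48952052) blocks TGF-β and BMP receptors alike and recruits SMURF ubiquitin ligases to them. It was counted 628, 545 and 443 times in WT against 756, 762 and 719 in MLST8-KO samples. SMAD7 groups were apart by a narrow margin, at 37.0 ± 4.86 and 47.3 ± 1.38 CPM (SD, n = 3 each), and the log2 fold change came to 0.35 with an SE of 0.10 (adjusted p = 0.0271, edgeR). The 95% interval of SMAD7 (0.12 to 0.58) lies below that of SMAD6 (0.76 to 1.63). SMAD7 kept its call without WT replicate 1, but lost it in each of the other 5 fits that left out 1 sample (WT replicate 2 or 3, or MLST8-KO replicate 1, 2 or 3), with log2 fold changes of 0.25 to 0.37 and adjusted p of 0.0582 to 0.100 (edgeR).

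TGFB1 (chromosome 19, 41301587 to 41353911), which encodes the TGF-β1 ligand, had 2248, 2180 and 2168 counts in WT against 2231, 2486 and 2451 in MLST8-KO samples. The groups overlapped, at 152 ± 3.96 and 151 ± 6.75 CPM (SD, n = 3 each). TGFB1 had a log2 fold change of -0.0038, with a 95% interval of -0.17 to 0.16 (adjusted p = 0.973, edgeR), and its sign turned under upper quartile scaling, on the log2 TPM scale and without WT replicate 3 or MLST8-KO replicate 1 (values from 0.016 to 0.080). TGFB1 shares 215 exon bases with HNRNPUL1 on the opposite strand, and whether counting used strand is not given in the sources used here.

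BMP4 (chromosome 14, 53949736 to 53958761), a ligand that signals through SMAD1 and SMAD5, had 3, 2 and 1 counts in WT against 6, 3 and 2 in MLST8-KO samples. TGFB2 (chromosome 1, 218346235 to 218444619), a second TGF-β ligand, had 3 counts in each WT sample and 8, 5 and 3 in MLST8-KO samples. Both genes failed the filter, and no difference was detectable at this depth.

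TGFBI (chromosome 5, 136028895 to 136063818) encodes a secreted adhesion protein of the matrix. It had 2475, 1934 and 2036 counts in WT against 3180, 3652 and 3445 in MLST8-KO samples. No WT sample reached the MLST8-KO range, and here MLST8-KO replicate 1 was the lowest of its group. The level rose from 148 ± 15.5 to 217 ± 10.7 CPM (SD, n = 3 each) and its log2 fold change came to 0.55 with an SE of 0.09 (adjusted p = 0.00380, edgeR).

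**Figure D2:**
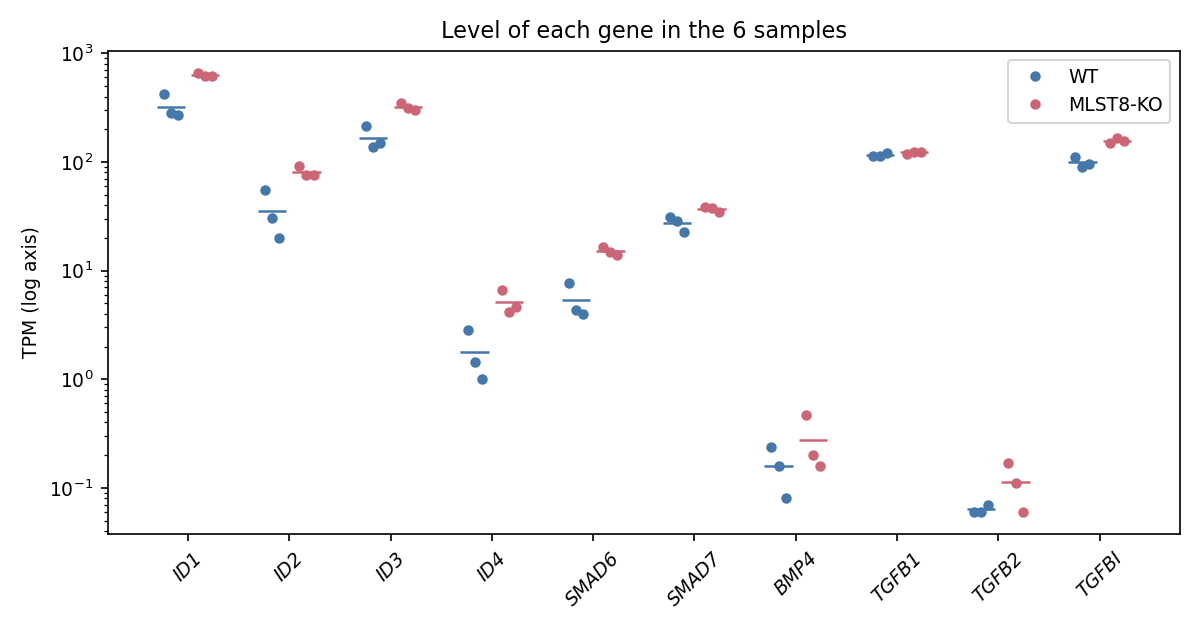
TPM of each of the 10 genes (log axis) in the 3 WT and 3 MLST8-KO samples; points are samples and bars group means. ID1 is highest in both groups, at 324 and 634 TPM on average, and BMP4 and TGFB2 lie below 0.5 TPM in every sample.

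Per transcript length, the order of levels in WT cells was ID1 (324 ± 85.5 TPM), ID3 (167 ± 40.7), TGFB1 (116 ± 3.60), TGFBI (99.4 ± 10.6), ID2 (35.2 ± 18.2), SMAD7 (27.4 ± 4.16), SMAD6 (5.32 ± 2.002), ID4 (1.76 ± 0.957), BMP4 (0.16 ± 0.08) and TGFB2 (0.0633 ± 0.0058; SD, n = 3). Of these neighbours, ID2 and SMAD7 overlapped in range. In MLST8-KO cells ID1 was at 634 ± 24.5 TPM, ID3 at 321 ± 24.4, TGFBI at 157 ± 9.47, TGFB1 at 122 ± 2.73, ID2 at 81.1 ± 10.1, SMAD7 at 36.8 ± 2.05, SMAD6 at 15.1 ± 1.16 and ID4 at 5.15 ± 1.29 (SD, n = 3). TGFBI thus stood below TGFB1 in WT cells and above it in MLST8-KO cells on the TPM scale, with ranges apart in both. BMP4 and TGFB2 overlapped in MLST8-KO cells.

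The WT samples were not alike in these genes. WT replicate 1 was the highest WT sample in 7 of the 8 genes tested, all but TGFB1, while over all genes it was the highest in 38.3%. MLST8-KO replicate 1 was the highest of its group in 6 of the 8, against 28.7% over all genes. Against each gene's WT mean, the median of the 8 genes was 0.37 in WT replicate 1, -0.16 in WT replicate 2 and -0.20 in WT replicate 3 (log2 CPM). The corresponding medians were 0.98, 0.81 and 0.85 in the MLST8-KO samples. Over all genes these medians were between 0 and 0.0105. Leaving out WT replicate 1 enlarged the log2 fold changes to 1.09 for ID1, 1.57 for ID2, 1.04 for ID3, 1.96 for ID4, 1.53 for SMAD6, 0.44 for SMAD7 and 0.63 for TGFBI. The summed squamous markers followed a like order, with 15322, 12240 and 10096 TPM in the WT samples, and their part in the result was not tested. Without MLST8-KO replicate 1, the library with hepatocyte transcripts, the log2 fold changes were 0.84 for ID1, 0.78 for ID3, 1.22 for ID4, 1.15 for SMAD6 and 0.59 for TGFBI, and these 5 genes kept their calls (adjusted p of 0.0216 to 0.0441, edgeR).

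**Figure D3:**
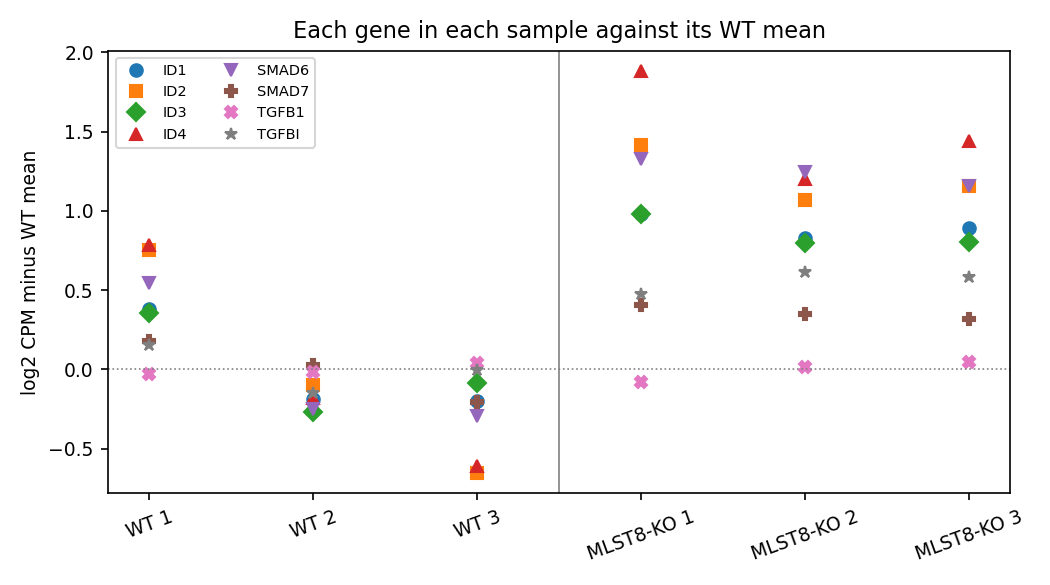
Log2 CPM of the 8 tested genes in each of the 6 samples, minus the gene's WT mean; each symbol is a gene. WT replicate 1 lies above the other WT samples for 7 genes, and all MLST8-KO samples lie above all WT samples for the same 7, with TGFB1 near 0 throughout.

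The rest of the pathway was read from 11 lists of other ligands, receptors, SMADs, antagonists, targets and ID partners. Of their 97 genes, 93 were listed and 76 tested. There were 14 higher DEGs (18.4%, against 16.3% of all genes tested) and 7 lower ones. In either direction 27.6% passed, against 32.0% of all genes tested. These counts moved to between 7 and 23 higher and between 4 and 8 lower when 1 sample was left out; the highest count of higher genes (23) came without WT replicate 1, and the lowest (7) without WT replicate 2 or MLST8-KO replicate 2, with 8 without MLST8-KO replicate 1. The lower genes fell to 4 without WT replicate 2 or MLST8-KO replicate 1. The median log2 fold change of the 76 genes was 0.094.

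**Figure D4:**
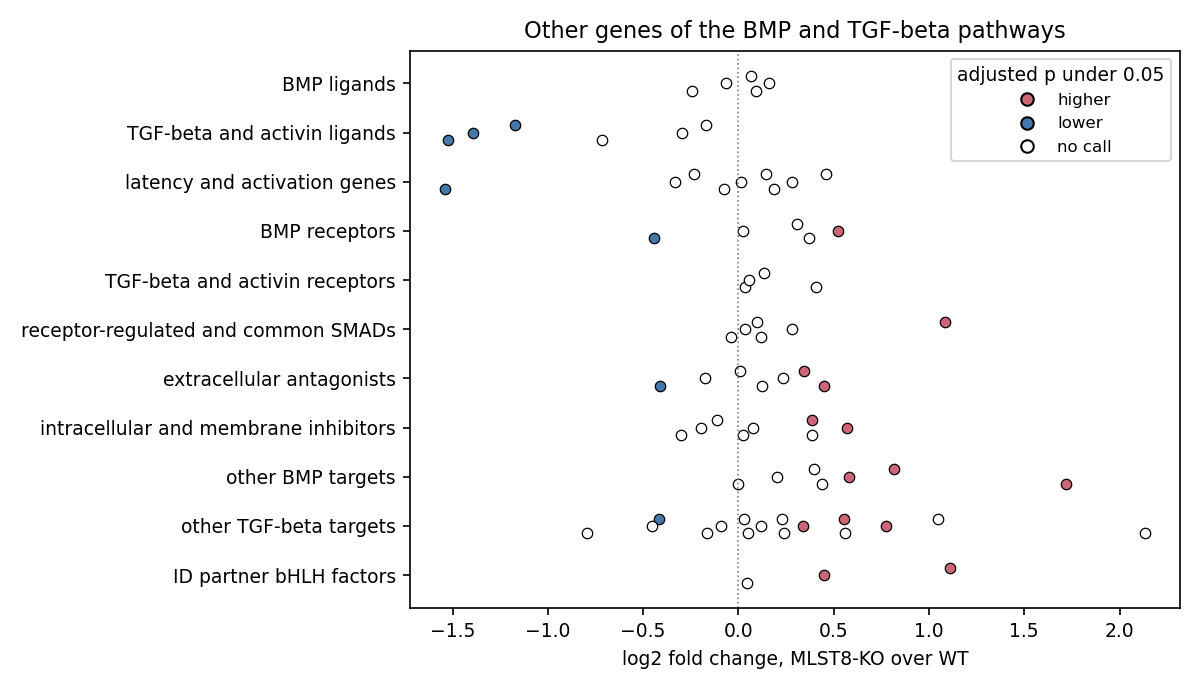
Log2 fold change of MLST8-KO over WT for the 76 other pathway genes tested, by list; each point is a gene, coloured where its adjusted p is under 0.05 (vertical offsets only separate points). The ligands and the latency list hold lower genes at -1.17 to -1.54, and the target and partner lists hold most of the higher ones.

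Among ligands, 0 of the 5 BMP genes tested passed in either direction with edgeR or DESeq2, and 0 had an unadjusted edgeR p under 0.05. Without WT replicate 1, BMP7 passed as higher (0.28 against 0.16 with all samples, adjusted p = 0.0406, edgeR). BMP2, the most abundant of them and an activator of SMAD1 and SMAD5, was counted 732, 592 and 549 times in WT against 696, 765 and 706 in MLST8-KO samples (log2 fold change 0.09, 95% interval -0.12 to 0.30, adjusted p = 0.486, edgeR). Of 6 TGF-β and activin family genes tested, 3 were lower and 0 higher. Of all genes tested, 15.7% were lower and 32.0% passed in either direction, both smaller shares. The count of 3 includes TGFB3, whose call was lost in many of the other settings, as given below. GDF15, a stress-induced family member that signals through its own receptor, fell from 671, 761 and 1076 counts in WT to 253, 317 and 386 in MLST8-KO samples (-1.52, adjusted p = 0.00281, edgeR). INHBA, which encodes the activin A subunit, had 214, 364 and 423 counts in WT against 89, 201 and 129 in MLST8-KO samples (-1.40, adjusted p = 0.00866, edgeR). Every MLST8-KO sample of GDF15 and INHBA lay below every WT sample in CPM. TGFB3, the gene of another TGF-β, was low at 14, 21 and 15 against 9, 11 and 4 counts (-1.17, adjusted p = 0.0473, edgeR), and its call was lost without WT replicate 2 or 3 or any MLST8-KO replicate (-1.44 to -0.86 over the 6 fits), and also with DESeq2, limma, upper quartile scaling or no filter.

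Of 9 latency and activation genes, 1 was lower and 0 higher (11.1% in all, against 32.0% of all genes tested). LRRC32, whose product GARP holds latent TGF-β on the cell surface, had 112, 98 and 106 counts in WT against 37, 24 and 57 in MLST8-KO samples (-1.54, SE 0.26, adjusted p = 0.00412, edgeR). The groups were well apart. The latent TGF-β binding proteins LTBP1 to LTBP4 and the activating integrin genes ITGAV, ITGB6 and ITGB8 did not pass with all samples. Without WT replicate 1, LTBP2 passed as lower (-0.31 against -0.23, adjusted p = 0.0239, edgeR) and ITGB8 as higher (0.35 against 0.14, adjusted p = 0.0205, edgeR). ITGB6 (0.46, adjusted p = 0.0628, edgeR) passed as higher under upper quartile scaling and with limma on log2(TPM + 1). THBS1, an activator of latent TGF-β, passed as lower without WT replicate 3 or MLST8-KO replicate 2 (-0.33 with all samples, adjusted p = 0.128, edgeR).

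Of 5 BMP receptor genes tested, 1 was higher and 1 lower (40.0% in all, against 32.0% of all genes tested). BMPR2, the main BMP type II receptor, was higher (512, 473 and 370 counts in WT against 697, 832 and 590 in MLST8-KO samples; log2 fold change 0.52, adjusted p = 0.0141, edgeR), and ACVR2A, a type II receptor for activins and some BMPs, was lower (-0.44, adjusted p = 0.0269, edgeR). BMPR2 lost its call without MLST8-KO replicate 1 or 2 (0.41 to 0.63 over the 6 fits). ACVR2A lost it without WT replicate 2 or 3 or any MLST8-KO replicate (-0.49 to -0.39) and with DESeq2 or limma. ACVR1, a BMP type I receptor, was at 0.31 (adjusted p = 0.0547, edgeR) and passed as higher under upper quartile scaling, with limma and without WT replicate 1 (0.42, adjusted p = 0.00788, edgeR). Of the 4 TGF-β and activin receptor genes tested, 0 passed with edgeR or DESeq2 and 0 had an unadjusted edgeR p under 0.05. TGFBR1, the most abundant, was at 63.6 ± 1.79 CPM in WT against 69.9 ± 7.19 in MLST8-KO (SD, n = 3 each; adjusted p = 0.274, edgeR). Of the 6 signal-carrying SMADs, SMAD9, itself a BMP target, was higher from a low level (27, 16 and 22 counts in WT against 51, 37 and 62 in MLST8-KO samples; 1.08, adjusted p = 0.0178, edgeR). Its call was lost without WT replicate 2 or MLST8-KO replicate 1 or 3 (0.89 to 1.28). SMAD1, SMAD2, SMAD3, SMAD4 and SMAD5 had log2 fold changes of -0.04 to 0.28 and did not pass with all samples. SMAD1 passed as higher without WT replicate 1 (0.43 against 0.28, adjusted p = 0.0306, edgeR).

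Of 7 antagonist genes tested, 2 were higher and 1 lower (42.9% in all, against 32.0% of all genes tested). CRIM1, a membrane protein that tethers BMPs, was higher (0.45, adjusted p = 0.00659, edgeR), as was FSTL3, a secreted activin-binding protein (0.34, adjusted p = 0.0291, edgeR), while FST, follistatin, was lower (-0.41, adjusted p = 0.0252, edgeR). FSTL3 and FST both lost their calls without WT replicate 2 or any MLST8-KO replicate (0.28 to 0.38 for FSTL3 and -0.51 to -0.30 for FST), FSTL3 also with DESeq2, and FST with limma. TWSG1, a BMP-binding protein (0.23, adjusted p = 0.0983, edgeR), passed as higher with limma and without WT replicate 1. SOSTDC1, also in this list, failed the filter on low counts, at 2, 0 and 0 counts in WT against 9, 9 and 10 in MLST8-KO samples. It passed as higher with DESeq2 (3.69, adjusted p = 0.0263). Inside the cell, 2 of 8 inhibitors were higher and 0 lower with edgeR. In either direction that share is below the 32.0% of all genes tested. For higher genes alone it is above the 16.3% of all genes tested. BAMBI, a kinase-less pseudoreceptor and a BMP and TGF-β target, rose from 570, 520 and 522 to 779, 783 and 729 counts (0.38, adjusted p = 0.00767, edgeR), and TGIF1, a SMAD2 and SMAD3 co-repressor, from 1466, 1025 and 855 to 1681, 1900 and 1799 (0.57, adjusted p = 0.0148, edgeR). TGIF1 lost its call without WT replicate 2 or MLST8-KO replicate 2 or 3 (0.44 to 0.78). PMEPA1, a TGF-β-induced inhibitor, was at -0.30 (adjusted p = 0.0656, edgeR) and passed as lower with DESeq2 (-0.31, adjusted p = 0.0416) and without WT replicate 3 or MLST8-KO replicate 2. TGIF2 (0.39, adjusted p = 0.0772, edgeR) passed as higher with limma and without WT replicate 1.

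Of 7 other BMP targets tested, 3 were higher and 0 lower, all homeobox genes (42.9% in all, against 32.0% of all genes tested). DLX2 had 1255, 702 and 672 counts in WT against 1552, 1871 and 1586 in MLST8-KO samples (log2 fold change 0.82, adjusted p = 0.0102, edgeR), again with WT replicate 1 above the other WT samples. DLX3, a regulator of epidermal differentiation, had 67, 26 and 8 counts in WT against 167, 101 and 90 in MLST8-KO samples (1.72, adjusted p = 0.0228, edgeR). Its value was 2.66 without WT replicate 1, and its call was lost without WT replicate 2 or MLST8-KO replicate 1 or 2 (1.27 at the lowest) and with DESeq2. MSX2 was also higher (0.58, adjusted p = 0.0187, edgeR), with its call lost without WT replicate 2 or MLST8-KO replicate 2 or 3 (0.47 to 0.70). MSX1 passed as higher without WT replicate 1 (0.67 against 0.39, adjusted p = 0.0180, edgeR), and HEY1 (0.44, adjusted p = 0.0855, edgeR) with limma.

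Of 16 other TGF-β targets, 3 were higher and 1 lower. In either direction that share is below the 32.0% of all genes tested. The share of higher genes is slightly above the 16.3% of all genes tested. The CDK inhibitor gene CDKN2B had 622, 533 and 514 counts in WT against 1147, 1181 and 781 in MLST8-KO samples (0.78, adjusted p = 0.00494, edgeR), whereas CDKN1A, which encodes p21, fell from 2458, 2371 and 2403 to 1866, 1994 and 2044 counts (-0.42, adjusted p = 0.00482, edgeR). These 2 cytostatic targets moved in opposite directions, each with groups apart. VIM (0.56, adjusted p = 0.0197) and MMP2 (0.34, adjusted p = 0.0457, edgeR) were higher. VIM lost its call without WT replicate 2 or MLST8-KO replicate 1 or 2 (0.43 to 0.70), and MMP2 without WT replicate 2 or 3 or any MLST8-KO replicate (0.24 to 0.46) and with DESeq2. COL4A1 (0.24, adjusted p = 0.0673, edgeR) passed as higher under upper quartile scaling, with limma and without WT replicate 1. Without MLST8-KO replicate 3, CCN2 passed as higher (1.05 with all samples, adjusted p = 0.0628, edgeR), and JUNB (-0.17, adjusted p = 0.239, edgeR) and SNAI1 (-0.80, adjusted p = 0.0815, edgeR) as lower. Without MLST8-KO replicate 1, CCN2 was at 0.56, JUNB at -0.08 and SNAI1 at -0.62 (adjusted p of 0.248 to 0.621, edgeR). CCN2 also passed with limma on log2(TPM + 0.1). FN1, which encodes fibronectin, was named after its values were seen. It had 171, 136 and 95 counts in WT against 1516, 247 and 131 in MLST8-KO samples (2.13, adjusted p = 0.0503, edgeR). It passed as higher without WT replicate 1 (2.31, adjusted p = 0.0327, edgeR), without MLST8-KO replicate 3, under upper quartile scaling and with either other filter. Its log2 fold change was 0.36 without MLST8-KO replicate 1 (adjusted p = 0.366, edgeR).

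The E proteins that ID factors bind were higher in 2 of 3 cases (66.7%, against 16.3% of all genes tested). TCF4 had 327, 249 and 170 counts in WT against 617, 626 and 504 in MLST8-KO samples (log2 fold change 1.11, SE 0.18, adjusted p = 0.00352, edgeR). TCF12 rose less (0.45, adjusted p = 0.0105, edgeR), and TCF3 was at 0.05 and did not pass. In both TCF4 and TCF12 all MLST8-KO samples were above all WT samples in CPM, and both kept their calls with each sample left out.

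Without MLST8-KO replicate 1, 12 of the 21 pathway DEGs kept their calls. The lower ones were GDF15 at -1.39, INHBA at -1.16, LRRC32 at -1.51 and CDKN1A at -0.39 (adjusted p of 0.0198 to 0.0382, edgeR). The higher ones were TCF4 at 1.06, DLX2 at 0.85, MSX2 at 0.70, CDKN2B at 0.68, TGIF1 at 0.60, TCF12 at 0.45, CRIM1 at 0.41 and BAMBI at 0.36 (adjusted p of 0.0224 to 0.0462, edgeR). The genes outside the DEGs that are given above for a call gained in another setting were named after their values were seen.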

How the data were processed

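RNA from 3 WT and 3 MLST8-KO samples of HCC2814 cells was sequenced after polyA selection on the DNBSEQ platform; the labels name the RNAqueous Micro kit and the study's methods Direct-zol for extraction. The authors filtered reads, aligned them with HISAT (GRCh38.p12) and used Bowtie2 for the assignment to genes (versions not given in the sources used here). They deposited estimated counts, TPM and FPKM per gene and sample. The deposited group means and FPKM values were not used, nor was the authors' table of their own fold changes and p-values. Of the counts, 12.4% were not whole, and all were rounded. Counts were tested with edgeR 4.0.16 in R 4.3.3 (filterByExpr, TMM, glmQLFit and glmQLFTest, group only), adjusted by Benjamini-Hochberg over 12951 genes at a threshold of 0.05, and DEGs are the genes past it. CPM are counts scaled by TMM library size. Standard errors are the absolute log2 fold change over the square root of F. TPM, as deposited by the authors, served to compare levels between genes. Alternatives were DESeq2 1.42.0, other scalings and filters, limma 3.58.1 on log2(TPM + 1) and log2(TPM + 0.1), a replicate block, a 2-fold minimum and leaving out each sample. Libraries of a group differed by more than sampling noise (chi-square per gene 6.98 to 26.5). Loci are from GENCODE 29, and upstream sequences and symbols from RefSeq (GRCh38.p14); list genes were matched by Entrez identifier, and 25 symbols stored as dates were restored. The members, lists and tests were chosen with earlier results of these data known. Named are the 10 members, MLST8, up to 4 DEGs per list by size of change, the most abundant gene of a list without DEGs, the 3 genes most correlated with the member of largest change, and exceptions stated in the text. Some items are not reported here. Figures were drawn with matplotlib 3.10.9.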

Additional observations from a re-analysis of the deposited data

How the results depend on the processing

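ID1, ID3, ID4, SMAD6 and TGFBI stayed higher DEGs in each of 14 alternatives. ID2 stayed higher in all 14, with the call lost in 2 (log2 fold change 0.83 to 1.57), and SMAD7 in all 14, with the call lost in 5 (0.25 to 0.44). TGFB1, which never passed, turned positive with upper quartile scaling (0.051), limma on log2(TPM + 1) (0.080) and log2(TPM + 0.1) (0.080), without WT replicate 3 (0.016) and without MLST8-KO replicate 1 (0.032); its range with 1 sample left out was -0.030 to 0.032. A 2-fold minimum left 3 members (ID2, ID4 and SMAD6), 3 higher and 4 lower pathway genes, and 340 higher and 219 lower genes of all, against 7, 14 and 7, and 2116 and 2030. With 1 sample left out, 5 to 7 members were higher and 0 lower, 7 to 23 pathway genes higher and 4 to 8 lower, and 971 to 2692 genes higher and 850 to 2651 lower of all; fewer samples were fitted in each. The counts of all genes moved by over 1.5 times without WT replicate 2 (971 higher, 1044 lower), MLST8-KO replicate 1 (979, 850) and MLST8-KO replicate 2 (1136, 1091). limma gave 1134 lower genes with a pseudocount of 1 and 1132 with 0.1, and 4 lower pathway genes with either. Of all calls, 51.0% were higher with TMM, 62.0% with upper quartile scaling, and 71.0% and 70.9% with limma on TPM + 1 and TPM + 0.1, where the median of all genes shifted by 0.092 and 0.10 (log2). The cause was not tested.

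The labels number the replicates 1 to 3 in both groups. Deviations from the group mean correlated at 0.105, 0.057 and 0.140 over all genes between samples numbered 1, 2 and 3. Each sample correlated best with its own number, and samples of unlike number gave -0.117 to 0.020. Over the 8 members tested, the same-numbered values were 0.90, 0.21 and 0.68, while WT replicate 3 with MLST8-KO replicate 2 gave 0.82. Whether the numbers pair the samples cannot be told from these values. With the replicate block, 7 members were higher and 0 lower, with log2 fold changes of 0.90 for ID1, 1.19 for ID2 and 0.36 for SMAD7, and 2261 genes were higher and 2157 lower of all. The block gave 16 higher and 7 lower pathway genes, with ACVR1 and FN1 gained as higher, and changed no member's call. Depth limits BMP4 and TGFB2, at 1 to 8 counts per sample.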
